A study of Mus musculus with 6 samples.

Results

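Macrophages are commonly described by the genes they switch on in response to inflammatory or to type 2 signals, and 6 such marker genes were examined here in macrophages that had met CD47. 4 of them mark inflammatory activation: Nos2, Cd38, Fpr2 and Saa3. The other 2, Arg1 and Retnla, mark alternative activation, the state associated with interleukin-4, tissue repair and parasite defence. The genes were taken by symbol from a deposited table of 714 genes, and all 6 were found in it.

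Messenger RNA had been sequenced from 6 libraries of mouse (C57BL/6) macrophages grown from bone marrow: 3 are wild-type and 3 carry the genotype label SENP8+/-, written Senp8+/- here, although their titles read KO. Senp8 encodes a protease that processes NEDD8 and removes this ubiquitin-like protein from its targets, and Senp8+/- cells keep 1 normal copy; the sources used here do not say how the other copy was altered. All 6 cultures were grown from flushed marrow for 6 days with GM-CSF at 10 ng/ml, given streptavidin beads coated with biotinylated mouse CD47, the ligand of the inhibitory receptor SIRPα, and taken for RNA 24 h later. Cultures without beads were not analysed here, and all values are from cells that had met CD47. The sources used here give no age, sex or number of animals. GM-CSF cultures of marrow are known to hold dendritic-like as well as macrophage-like cells. Of 16 macrophage markers only C1qa and C1qc are in the table used here, with C1qa at 7678 ± 2877 normalised counts in wild type and 3654 ± 904 in Senp8+/-, so the cell type label could be checked no further. Senp8 itself was not analysed here. In a bulk culture, fewer cells of a type and less RNA per cell cannot be told apart.

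The enzymes made from Nos2 and Arg1 use the same amino acid. Inducible nitric oxide synthase turns arginine into nitric oxide and citrulline and is a classic product of macrophages that have met interferon-γ and microbial ligands. Arginase 1 turns arginine into ornithine and urea and is induced by interleukin-4, and in GM-CSF cultures and hypoxic tissue also without it. Of the other markers, Cd38 encodes a surface enzyme that consumes NAD, Fpr2 a receptor for formylated peptides and serum amyloid A, Saa3 an acute-phase serum amyloid A made by macrophages, and Retnla the secreted resistin-like protein also called FIZZ1 or RELMα.

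5 of the 6 markers were lower in Senp8+/- macrophages by the test in the authors' deposited table, among them both arginine enzymes and genes of both activation states. Nos2 was 13.4-fold, Fpr2 8.16-fold, Arg1 6.07-fold, Cd38 3.16-fold and Retnla 3.08-fold lower by mean level. The remaining marker, Saa3, averaged 2.26-fold less in Senp8+/- but did not pass that test, and its genotypes overlapped. The authors' deposited table holds only genes that differ on this same contrast, each with an unadjusted p below 0.05 (largest 0.0499) and at least a 2-fold difference. Under its adjusted threshold of 0.05, genes called lower made up 1.65% of the 14694 genes in the authors' correction and 33.9% of the 714 listed genes, and genes called in either direction 2.01% of the 14694. Genes called higher made up 7.42% of the listed genes, and 79.7% of the listed genes had a lower mean in Senp8+/-. Because members were drawn from a list chosen on this contrast, their count is a description.

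Values below are normalised counts, that is, reads of a gene divided by 1 size factor per library (0.933 to 1.14). Reads over the listed genes came to 439026 to 491156 in wild-type and 205957 to 217286 in Senp8+/- libraries; these sums cover the listed genes only, and the full depth is unknown here. Means are given ± SD with n = 3 libraries per genotype. Whether the 3 came from separate animals or cultures is not stated in the labels, and the p-values below therefore reflect only how these libraries differ, which may be technical variation. "Fell" means an adjusted p below 0.05 by the authors' deposited table. A separate fit of the same values with limma on log2(value + 1), adjusted over 14694 genes, is given beside it; fold changes on that scale understate the change of low genes, and its threshold was likewise 0.05.

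Nos2 (ENSMUSG00000020826, protein-coding, chromosome 11, 78920787 to 78960254, plus strand, GRCm38) stood at 109.9, 60.2 and 167 normalised counts in wild-type replicates 1, 2 and 3. In Senp8+/- replicates 1, 2 and 3 it stood at 15.4, 6.51 and 3.21. The lowest wild-type library was 3.90 times the highest Senp8+/- library, so the genotypes did not overlap. Nos2 fell from 112 ± 53.4 to 8.39 ± 6.33, or 7.47% of the wild-type level. The limma estimate was -3.70 ± 0.53 (log2, SE; adjusted p = 0.00338), and the authors' deposited table gives -3.74 with an adjusted p of 1.05e-07. The Senp8+/- values rest on 15, 7 and 3 reads, 25 in all, against 359 in wild type. The 95% exact Poisson interval of 3 reads, 0.619 to 8.77, shows how little the lowest library fixes, and it covers counting error only. Without Senp8+/- replicate 1 the fall came to 23.1-fold, and without wild-type replicate 1 or Senp8+/- replicate 2 the limma adjusted p was 0.166 or 0.0853.

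Arg1 (ENSMUSG00000019987, protein-coding, chromosome 10, 24915221 to 24927484, minus strand, GRCm38) was among the most abundant transcripts of the set. Its 3 wild-type libraries held 7809, 11186 and 4475 normalised counts, and its 3 Senp8+/- libraries 1303, 1382 and 1182. The wild-type libraries differed from each other by up to 2.50-fold, the Senp8+/- libraries by at most 1.17-fold, and no wild-type value overlapped the Senp8+/- range. Arg1 fell from 7823 ± 3356 to 1289 ± 101, or 16.5% of wild type. The limma estimate was -2.51 ± 0.31 (log2, SE; adjusted p = 0.00168), while the authors' deposited table has -2.60 with an adjusted p of 3.59e-11. With 3855 reads in Senp8+/- and 23603 in wild type, counting error was small beside the spread between libraries. The limma adjusted p was 0.115 without wild-type replicate 1 and 0.0505 without Senp8+/- replicate 2, and with libraries rescaled to equal medians over the listed genes the value was -1.49 (adjusted p = 0.0749).

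**Figure D1:**
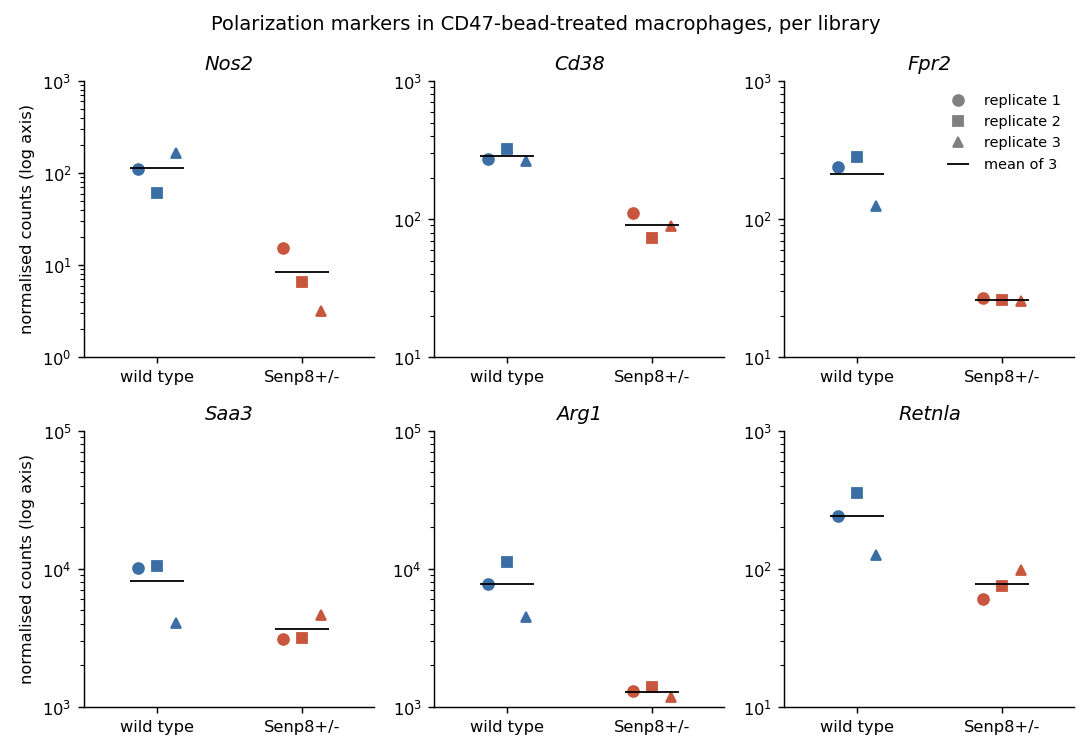
Normalised counts of the 6 markers on log axes, 1 point per library with its replicate shape, and a bar at the mean of the 3 libraries of each genotype; the axis range differs between panels. The genotypes are apart in every panel except Saa3, where wild-type replicate 3 (4069) lies under Senp8+/- replicate 3 (4633).

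The ratio of Arg1 to Nos2 within a library needs no scaling between libraries. In wild-type replicates 1, 2 and 3 there were 71.0, 186 and 26.8 Arg1 counts per Nos2 count, and in Senp8+/- replicates 1, 2 and 3 there were 84.4, 212 and 368. The Senp8+/- ratios rest on 15, 7 and 3 Nos2 reads, so the highest of them is only loosely fixed. In that library Nos2 stood at 3.21 normalised counts, to which the added 1 used below is not small. The highest wild-type ratio lay above the lowest Senp8+/- ratio, so the genotypes overlapped. On the log2 scale, with 1 added to both genes, the ratio averaged 6.13 ± 1.39 in wild type and 7.32 ± 0.93 in Senp8+/-. The difference of 1.19 ± 0.96 (SE) gave p = 0.2 in a two-sided exact permutation test, where 3 against 3 libraries cannot go below 0.1. A change in the balance of the 2 transcripts was therefore not shown, although both fell. Corrected for transcript length as deposited (2228 bases for Arg1, 4412 for Nos2), the ratio ran from 53.1 to 368 in wild type and from 167 to 728 in Senp8+/-, so Arg1 was the far more abundant transcript in all 6 libraries. Wild-type replicate 3, with the highest Nos2 and the lowest Arg1 of its genotype, had the lowest ratio of all. Without it the log2 difference was 0.50.

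All 8 ratios of an alternative to an inflammatory marker were compared in the same way. The genotypes stayed apart in 3 of them, each with an exact permutation p of 0.1, the smallest possible, and an adjusted p of 0.229 over the 8. The log2 ratio of Arg1 to Saa3 differed by -1.43 ± 0.30 (SE; Senp8+/- minus wild type), with ratios of 0.772, 1.07 and 1.10 in wild type and 0.419, 0.437 and 0.255 in Senp8+/-. That of Retnla to Fpr2 differed by 1.38 ± 0.24, with ratios going from 1.03, 1.26 and 1.02 to 2.27, 2.89 and 3.83. That of Arg1 to Fpr2 differed by only 0.39 ± 0.10, with 33.0 to 40.0 in wild type and 46.0 to 53.1 in Senp8+/-. The remaining 5 overlapped. Among the 3, Arg1 was lower relative to Saa3 and higher relative to Fpr2 in Senp8+/-, although both are inflammatory markers. None of the 8 passed the corrected threshold, which this number of libraries does not allow.

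**Figure D2:**
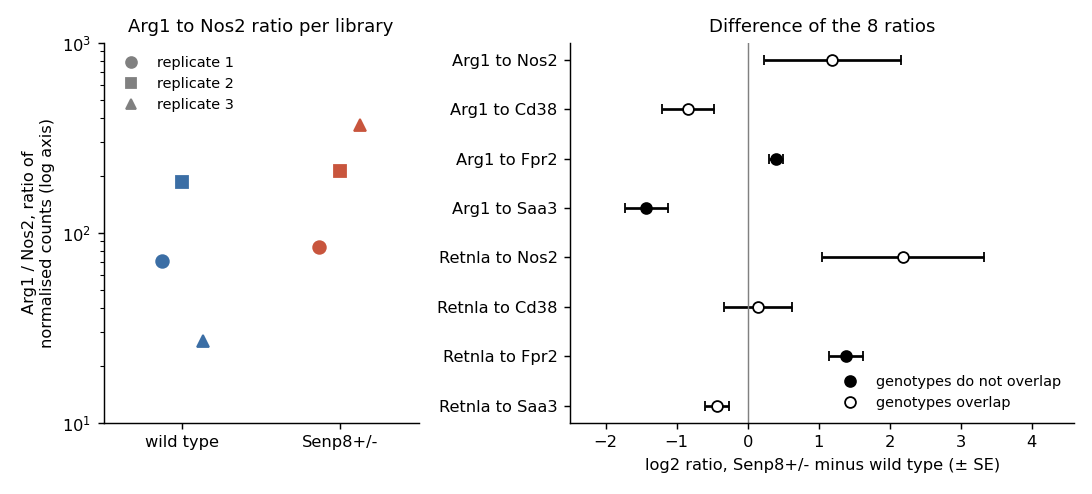
Left, the ratio of Arg1 to Nos2 normalised counts on a log axis, 1 point per library; the 3 wild-type points (26.8 to 186) and the 3 Senp8+/- points (84.4 to 368) overlap. Right, the Senp8+/- minus wild-type difference of 8 log2 ratios with its SE, filled where the genotypes do not overlap (3 of 8), open where they do.

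Fpr2 showed the least observed spread of any marker among Senp8+/- libraries, but at 24 to 28 reads per library counting error is wider than that spread. The Fpr2 product is a G protein-coupled receptor of neutrophils and macrophages that senses formylated peptides. Fpr2 (ENSMUSG00000052270, chromosome 17, 17887824 to 17893952, plus strand, GRCm38) stood at 237, 279.8 and 124 normalised counts in wild type and at 26.8, 26.0 and 25.7 in Senp8+/-. It fell from 214 ± 80.4 to 26.2 ± 0.537, and the lowest wild-type library was 4.64 times the highest Senp8+/- one. limma gave -2.90 ± 0.37 (SE; adjusted p = 0.00194), but 0.106 without wild-type replicate 1. In the authors' deposited table the adjusted p is 1.62e-11. The Fpr2 gene overlaps Fpr3 on the same strand in GENCODE M21. Of the 50-base runs in its annotated transcripts 31.5% also occur in transcripts of other genes, 28.4% in the predicted gene Gm5966 and 6.33% in Fpr3, so reads could have been split and its level is uncertain.

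Fpr1, the neighbouring formyl peptide receptor and a neutrophil marker, fell as well, from 77.0 ± 30.1 to 15.1 ± 8.09. Of 18 genes for formyl peptide receptors, serum amyloid A proteins and their partners, 3 were listed, Fpr2, Saa3 and Fpr1, so that Fpr1 is the 1 gene the list adds to the members; of all listed genes 33.9% were called lower.

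Saa3 (ENSMUSG00000040026, chromosome 7, 46711998 to 46715700, minus strand, GRCm38) was the marker whose genotypes overlapped. It stood at 10118, 10481 and 4069 normalised counts in wild type and at 3114, 3161 and 4633 in Senp8+/-. Wild-type replicates 1 and 2 lay above every Senp8+/- library, and wild-type replicate 3 lay between Senp8+/- replicates 2 and 3. The means were 8223 ± 3602 and 3636 ± 864. In limma the difference was -1.08 ± 0.35 (log2, SE; adjusted p = 0.255), and the authors' deposited table gives an adjusted p of 0.0830. Without wild-type replicate 3 the limma value was -1.53 with an adjusted p of 0.0136. When the libraries were instead rescaled to equal medians over the listed genes, the log2 fold change of Saa3 was -0.07, and that scaling raised the log2 fold changes of the listed genes by a median of 0.96.

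Cd38 (ENSMUSG00000029084, chromosome 5, 43868553 to 43912375, plus strand, GRCm38) had the most even wild-type values, 273, 324 and 265 normalised counts. Its Senp8+/- values were 111, 72.6 and 88.9, all below wild type. Cd38 fell from 287 ± 32.1 to 90.9 ± 19.4, a limma estimate of -1.67 ± 0.31 (log2, SE; adjusted p = 0.0202), and has an adjusted p of 3.02e-07 in the authors' deposited table. With equal medians over the listed genes the limma value was -0.66 (adjusted p = 1). With the replicate number as a block the limma adjusted p was 0.0619, and it was above 0.05 without any 1 of 4 libraries (wild-type replicate 1 or 2, Senp8+/- replicate 2 or 3; 0.214, 0.0687, 0.186 and 0.128). GENCODE M21 places Gm16014, annotated as sense intronic, within Cd38 on the same strand and Gm16015 antisense to it. Overlap of their exons with those of Cd38 was not examined, and the strand setting is not known. Whether reads of these genes were counted for Cd38 is therefore unknown. Of 24 genes of NAD metabolism, 3 were listed, and Cd38 was the 1 that fell, where 33.9% of all listed genes were called lower. Naprt, which makes NAD from nicotinic acid, stood at 56.5 ± 15.7 in wild type and 25.8 ± 3.73 in Senp8+/-, and Kynu, a kynurenine pathway enzyme, at 13.9 ± 1.82 and 5.36 ± 0.218. Neither was called in the authors' deposited table.

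Retnla (ENSMUSG00000061100, chromosome 16, 48842551 to 48844461, plus strand, GRCm38) stood at 243, 353 and 127 normalised counts in wild type and at 60.7, 75.4 and 98.6 in Senp8+/-. The genotypes did not overlap, but wild-type replicate 3 was only 1.29 times Senp8+/- replicate 3. Retnla fell from 241 ± 113 to 78.2 ± 19.1 by the authors' deposited table (adjusted p = 0.00821). limma did not call it, at -1.52 ± 0.40 (SE; adjusted p = 0.110), nor did edgeR on recovered reads (adjusted p = 0.0770), whereas limma without wild-type replicate 3 gave -1.92 (adjusted p = 0.0265). Of 9 resistin-like and chitinase-like genes the other listed one was Retnlg, which had 0 reads in all 3 Senp8+/- libraries and 14.6 ± 8.33 normalised counts in wild type. Against a floor of 3 reads per library Retnlg was at least 4.80-fold lower, and 33.9% of all listed genes were called lower.

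The promoter table matched 4 of the 6 members, Cd38, Fpr2, Saa3 and Retnla, and the 250 bases before each annotated start were searched on both strands for motifs, of which 6 are reported, 5 of factors that act in macrophage activation and the TATA box. The windows of Saa3 and Retnla are printed because they hold motifs of such factors in 1 inflammatory and 1 alternative marker gene. Capitals mark the matches, and the sequences are RefSeq's of GRCm38.p6, each read 5′ to 3′ on the strand of its gene. The start is RefSeq's, which for Saa3, Retnla and Cd38 lies within the gene as deposited. For Cd38 the whole window does, at chr5:43868559-43868808 in a plus-strand gene that starts at 43868553. The windows are chr7:46715677-46715926 (minus strand) for Saa3 and chr16:48842359-48842608 (plus strand) for Retnla.
Saa3: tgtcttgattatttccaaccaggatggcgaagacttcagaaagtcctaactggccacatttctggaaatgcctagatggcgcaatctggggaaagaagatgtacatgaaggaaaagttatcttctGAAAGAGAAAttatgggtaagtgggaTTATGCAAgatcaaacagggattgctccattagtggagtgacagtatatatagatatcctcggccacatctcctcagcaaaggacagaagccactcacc
Retnla: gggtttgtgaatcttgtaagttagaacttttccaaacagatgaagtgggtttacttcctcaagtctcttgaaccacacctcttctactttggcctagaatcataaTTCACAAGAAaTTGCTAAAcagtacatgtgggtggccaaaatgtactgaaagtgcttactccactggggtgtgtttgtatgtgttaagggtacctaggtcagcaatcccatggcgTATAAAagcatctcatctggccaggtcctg

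TATAAA was found in Fpr2 130 bases and in Retnla 30 bases before the start and occurs in 12.4% of windows. The C/EBP motif TTGCNNAA was found in Saa3, on the opposite strand from 99 bases before the start, and in Retnla from 134 bases, and occurs in 9.56% of windows. Saa3 also holds the interferon regulatory factor motif, GAAA and GAAA with 2 bases between (2.98% of windows), from 125 bases before the start. Retnla holds TTC and GAA 4 bases apart, the spacing preferred by STAT6 (5.85% of windows), from 145 bases before the start, with 1 base between it and the C/EBP match. None of these 6 motifs was in the Cd38 window, which lies wholly inside the gene as deposited. The NF-kB motif, GGG and TTTCC with 2 bases between (1.41% of windows), was in none of the 4 windows. Nor was the hypoxia response core ACGTG (16.6%). The matches in a window do not overlap each other. A match is a description of letters and not of binding.

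Across the 6 markers, 5 showed no overlap between genotypes, against 89.4% of all listed genes. limma placed 4 of them (Nos2, Arg1, Fpr2 and Cd38) past its threshold on the lower side, where 20.9% of the listed genes and 1.01% of 14694 stood. The 6 genes lie on 6 different chromosomes.

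Levels of different genes were compared only as normalised counts per kilobase of the deposited gene length. In wild type the order of these levels was Arg1 (3511 ± 1506), Saa3 (3155 ± 1382), Retnla (402 ± 189), Fpr2 (165 ± 62.0), Cd38 (73.9 ± 8.25) and Nos2 (25.5 ± 12.1). In Senp8+/- it was Saa3 (1395 ± 332), Arg1 (579 ± 45.4), Retnla (131 ± 31.8), Cd38 (23.4 ± 4.98), Fpr2 (20.2 ± 0.414) and Nos2 (1.90 ± 1.43). Arg1 and Saa3 did not differ beyond their spread in wild type, where Saa3 was the higher in 1 of 3 libraries, but Saa3 was the higher in 3 of 3 Senp8+/- libraries. Cd38 and Fpr2 did not differ beyond their spread in Senp8+/-. Retnla and Fpr2 overlapped in wild type over libraries, although Retnla was the higher within each of the 6. Retnla is annotated with only 599 bases, close to the length of a library fragment, so its level per kilobase is uncertain. The lengths used for Arg1 and Saa3, 2228 and 2606 bases, are those deposited, and which transcripts of these genes were present was not examined. Their order per kilobase is therefore uncertain as well.

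The markers did not all vary alike among the wild-type libraries. In 5 of the 6 markers, Cd38, Fpr2, Saa3, Arg1 and Retnla, wild-type replicate 2 was the highest and replicate 3 the lowest, an order that 26.8% of the listed genes shared, and 27.9% of those with a lower mean in Senp8+/-. Nos2 had the reverse order, with replicate 3 the highest and replicate 2 the lowest, as did 24.5% of the listed genes. Among the Senp8+/- libraries the observed Nos2 value was highest in replicate 1 and lowest in replicate 3. Saa3 and Retnla were the opposite. For Nos2 the exact Poisson intervals overlap between all replicates (8.64 to 25.5, 2.62 to 13.4 and 0.663 to 9.39 normalised counts). Those of replicates 1 and 2 overlap in Saa3 (3004 to 3227 and 3056 to 3269) and Retnla (46.2 to 78.3 and 59.8 to 93.7). The lowest library of each is therefore unresolved, and an opposite order is not established. In Saa3 and Retnla the intervals of replicates 1 and 3 do not overlap. Fpr2 and Arg1 hardly moved among the Senp8+/- libraries, with ratios of highest to lowest library of 1.04 and 1.17. For Fpr2, at 24 to 28 reads per library, counting error is wider than that.

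**Figure D3:**
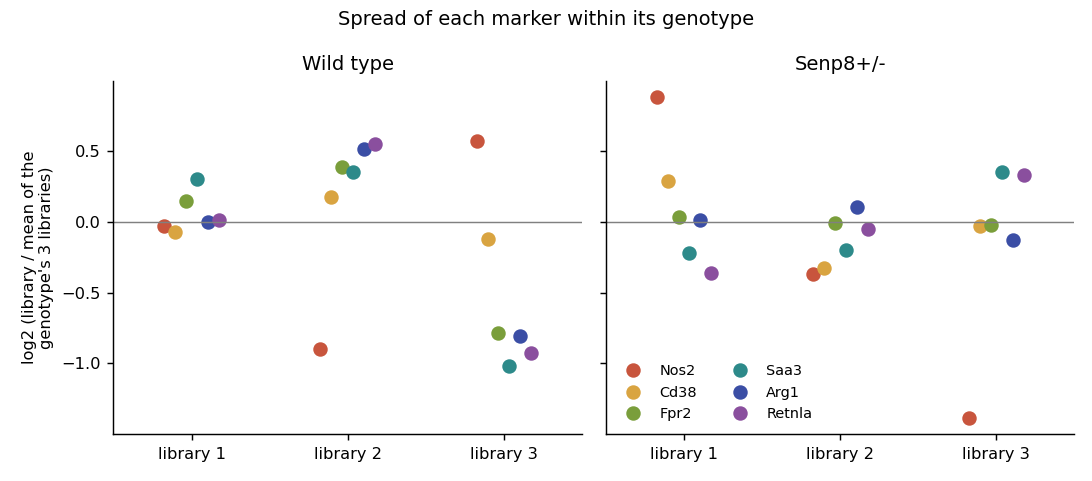
Each library's normalised count relative to the mean of the 3 libraries of its genotype, on a log2 scale, with 1 coloured point per marker. In wild type Nos2 lies above 0 in library 3 and below 0 in library 2, while Arg1, Retnla, Saa3 and Fpr2 lie the other way; library numbers name samples and carry no order.

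Genes whose levels over the 6 libraries were most like Nos2 and Arg1 were sought among 331 listed genes: of the 357 whose mean reached 26.8, the median over the table, 26 with names of predicted or clone-based genes were left out. Each Pearson r of log2(value + 1) below is over 6 libraries that share the difference between genotypes by which all listed genes were chosen, and it is a description. Closest to Nos2 was Ciita (r = 0.9991), the master regulator of MHC class II genes and itself inducible by interferon-γ. Ciita stood at 384, 209 and 640.4 normalised counts in wild type and at 55.6, 26.0 and 16.1 in Senp8+/-. By observed values this is the order of libraries of Nos2. For Senp8+/- replicates 2 and 3, with 7 and 3 Nos2 reads, the Nos2 order is unresolved. The ratio of Ciita to Nos2 counts stayed between 3.47 and 5.00 while Nos2 itself spanned 51.9-fold. Both the ratio of 5.00 and the lowest Nos2 value come from Senp8+/- replicate 3, with 3 Nos2 reads. The span and that ratio are therefore only loosely fixed. Itgb7, an integrin β chain (r = 0.992), and Pltp, a lipid transfer protein (r = 0.992), came next. The median r with Nos2 over these genes was 0.841.

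Closest to Arg1 were Lsp1, a leukocyte actin-binding protein (r = 0.9987), the chemokine gene Ccl8 (r = 0.997) and Fpr2 (r = 0.996), against a median r of 0.868. Ccl8 stood at 229, 335 and 82.1 normalised counts in wild type and at 17.5, 16.7 and 16.1 in Senp8+/-. Lsp1 stood at 2749, 3258 and 1926 and at 907, 901 and 890.2. All 3 share with Arg1 a spread among wild-type libraries and near-equal Senp8+/- values. Fpr2 and Ccl8 were low in Senp8+/- (25.7 to 26.8 and 16.1 to 17.5 normalised counts), where counting error is wider than that near-equality. Over the same 6 libraries the r of Arg1 with Nos2 was 0.839 and that of Saa3 with Nos2 0.524.

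**Figure D4:**
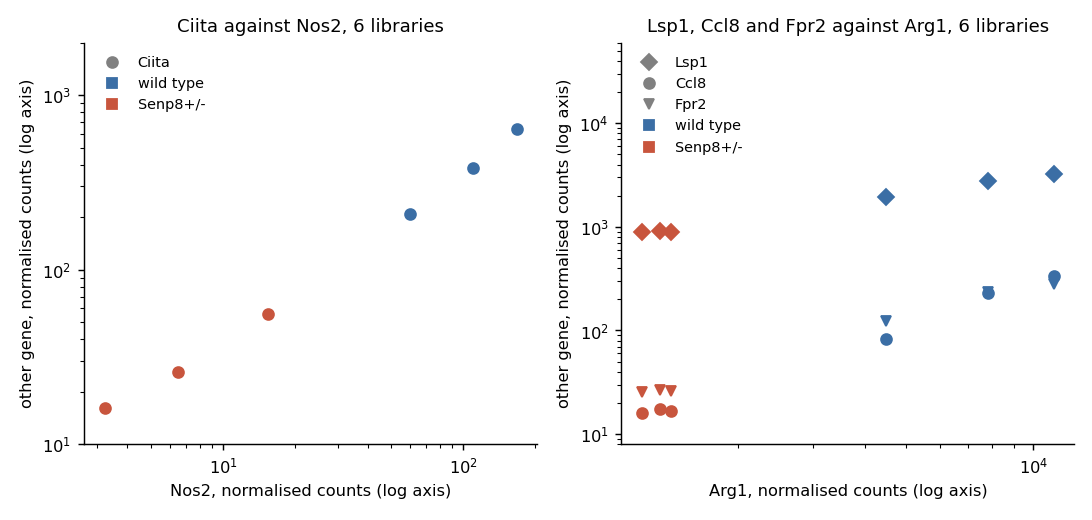
Normalised counts on log axes, 1 point per library and gene, blue for wild type and red for Senp8+/-. Left, Ciita rises with Nos2 over all 6 libraries; right, Lsp1, Ccl8 and Fpr2 are spread with Arg1 in wild type and cluster in Senp8+/-.

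The genes around Nos2 and Arg1 in arginine, nitric oxide and polyamine metabolism were few in the table. Of 35 such genes 5 were listed, all lower in Senp8+/-, and 3 fell: Nos2, Arg1 and Ass1. Besides the 2 members, 1 of 3 fell, where 33.9% of all listed genes were called lower and 79.7% had a lower mean. Ass1 encodes argininosuccinate synthase, which with its partner lyase remakes arginine from citrulline, and it fell from 694 ± 172 to 154 ± 28.9, or 4.51-fold. Arg2, the mitochondrial arginase, stood at 33.1 ± 16.2 in wild type and 11.0 ± 5.07 in Senp8+/-, and Pycr1, an enzyme of proline synthesis, at 9.84 ± 4.02 and 3.02 ± 1.01. Neither was called. The other 30 genes are not in the table used here, which for a single gene cannot be told apart from a p of 0.05 or more, a difference under 2-fold, or not having been tested. Without Nos2 and Arg1, 3 genes of this list were listed, and their median log2 fold change in the authors' deposited table was -1.71, against -1.48 over all listed genes.

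Of 42 receptors, kinases and transcription factors that carry cytokine and microbial signals to Nos2 and Arg1, 1 was listed. It was Irf1, an interferon-induced factor required for Nos2 induction, which fell from 4082 ± 420 to 1655 ± 476 (2.47-fold). The share of all listed genes called lower was 33.9%. Its Senp8+/- libraries stood at 2131, 1178 and 1657 for replicates 1, 2 and 3, and Nos2 had replicates 2 and 3 the other way round. Nos2 rests there on 7 and 3 reads. Their exact Poisson intervals, 2.62 to 13.4 and 0.663 to 9.39 normalised counts, overlap, so the Nos2 order of these replicates is unresolved. Whether Irf1 had a part in the fall of Nos2 was not tested.

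The wider marker lists held members of both kinds. Besides the 4 inflammatory members, 8 of 30 further inflammatory genes were listed and 7 fell, against 33.9% of listed genes called lower. Among them Cxcl9, a chemokine induced by interferon-γ, fell from 383 ± 161 to 27.6 ± 9.86. Ccl5, a T cell chemokine, and Marco, a scavenger receptor, fell 4.55-fold and 6.02-fold. Besides Arg1 and Retnla, 8 of 35 further alternative-activation genes were listed and 5 fell, Ccl22, Ear2, Pdcd1lg2, Alox15 and Mgl2, the last 3 named after their values were seen. Pdcd1lg2, the PD-1 ligand PD-L2, fell 3.17-fold to 11.4 ± 0.692 normalised counts and Alox15, a lipoxygenase of interleukin-4-treated macrophages, 3.98-fold to 8.24 ± 3.55. The median log2 fold changes in the authors' deposited table were -1.32 and -1.55 for these further genes of the 2 lists. The lists were chosen with earlier results of these data known, so their counts are no independent evidence.

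Markers of several other cell types were lower in Senp8+/- together with the 6 genes. The counts below stand beside 33.9% of all listed genes called lower, a share near which the stromal and endothelial markers lie. Of 20 neutrophil markers 5 were listed and 4 fell (Csf3r, Fpr1, Retnlg and Prtn3), with summed levels of 1279.5 to 1628 normalised counts in wild type and 387 to 582 in Senp8+/-; Retnlg was at 0 reads in Senp8+/-. Of 13 monocyte and progenitor markers 4 were listed and 3 fell, with sums of 953 to 2107 and 337 to 513. Of 16 dendritic cell markers 2 were listed, Clec9a and Ccl22, and both fell, with sums of 545 to 786 and 177 to 276. Of 23 T and NK cell markers 11 were listed and 6 fell, with sums of 224 to 317 and 36.3 to 49.4, and Gzma and Ncr1 were at 0 reads in Senp8+/-. Of 16 stromal and endothelial markers 9 were listed and 3 fell, with sums of 723 to 1805 and 397 to 722. Of 8 B cell markers 1 was listed and did not pass the test, with 25.3 to 46.5 and 10.7 to 12.4. Of 15 eosinophil, basophil and mast cell markers 2 were listed and 1, the mast cell tryptase gene Tpsab1, rose, from 1.96 ± 1.73 to 18.6 ± 10.8. The other, Ccr3, was not called and had the lower mean in Senp8+/-, 4.99 ± 1.74 against 18.0 ± 6.36. Their sums, 15.7 to 26.4 and 9.26 to 32.6, therefore describe neither gene. The 2 listed macrophage markers, neither of which passed the test, summed to 10922 to 24342 and 8169 to 11604. The part of these cell types in the levels of the 6 genes was not tested.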

How the data were processed

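RNA sequencing of 6 libraries was analysed, grouped by sample titles. The submitters' processing notes name HISAT2 2.0.5 and featureCounts 1.5.0-p3; genome build, annotation, strand setting and test: not given in the sources used here. The deposited table holds, as a signal per library, read counts divided by 1 size factor by the authors; 100% of values in each library were whole multiples of 1 step (tolerance 1e-06 of a read), from which reads were recovered. Its log2 fold changes, p-values and adjusted p-values were deposited by the authors, 40 of the latter written as 1. Their correction covered 14694 genes, computed as the ratio of adjusted to raw p of the first-ranked gene. Other per-sample columns numbered 0.

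limma 3.58.1 (R 4.3.3, with a trend of variance on mean) was run on log2(value + 1) for all 714 genes with genotype as the only term and Benjamini-Hochberg adjustment over 14694 genes. Because only selected genes were fitted, its variance estimates come from them alone. Single ratios were tested by exact permutation of libraries. edgeR 4.0.16 and DESeq2 1.42.0 on recovered reads, other pseudocounts, filters, scalings, a replicate block and leaving out each library were alternatives. The fits were tested on simulated data in which every gene had the same variability beyond counting error and most genes were unchanged. The listed genes were all chosen for a difference, so that test says little about them. Of 714 identifiers 714 were in GENCODE M21 (GRCm38), 686 at the same position, among them the 6 members; positions are named GRCm38 on that basis. Named genes were the 6 members, Senp8 (not analysed here), up to 4 listed genes of smallest p per list, all listed arginine genes, and the 3 genes most like Nos2 and Arg1; Il10, the genes most like the other members, marker genes of other cell types and others so marked were named after their values were seen. Members and lists were chosen with earlier results of these data known. For 50-base runs, both strands of all GENCODE M21 transcripts were compared. 1 further promoter motif is not reported here.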

Additional observations from a re-analysis of the deposited data

How the results depend on the processing

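Each of the 6 genes remained lower in Senp8+/- in all 14 alternatives, with limma, edgeR or DESeq2 log2 fold changes from -4.21 to -2.77 for Nos2, -3.25 to -1.91 for Fpr2, -2.86 to -1.49 for Arg1, -1.82 to -0.66 for Cd38, -1.92 to -0.51 for Retnla and -1.53 to -0.07 for Saa3. Past the adjusted threshold were 12, 13, 11, 8, 2 and 1 of the 14, in that order. Listed genes were chosen on this same contrast, so a kept sign is little evidence about the 6 genes. Among all 714 listed genes, 29 turned sign with equal medians over the listed genes and 0 with the deposited scaling undone. With equal medians over the listed genes, a scaling set by genes that mostly lie lower in Senp8+/-, Arg1 gave -1.49 (adjusted p = 0.0749) and Cd38 -0.66 (adjusted p = 1); log2 fold changes moved up by a median of 0.96 and 78.1% of limma calls were then higher, against 15.3%. DESeq2 called Retnla at -1.62 (adjusted p = 0.00939). With 1 library left out the log2 fold changes ran from -4.21 to -3.23 for Nos2, -1.82 to -1.52 for Cd38, -3.25 to -2.67 for Fpr2, -1.53 to -0.84 for Saa3, -2.86 to -2.20 for Arg1 and -1.92 to -1.18 for Retnla. limma placed 176 listed genes past the threshold, and between 11 and 181 with 1 library left out. These counts were 11, 112 and 181 on leaving out wild-type replicates 1, 2 and 3 in turn, and 100, 37 and 87 on leaving out Senp8+/- replicates 1, 2 and 3. The log2 difference of the Arg1 to Nos2 ratio ran from 0.50 to 1.89 with 1 library left out, and was 1.41 with no pseudocount and 0.62 with a pseudocount of 5.

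Replicate numbers gave no sign of pairing the libraries. Deviations from the genotype means correlated at 0.0101, 0.0441 and -0.243 for same-numbered libraries, and at -0.243 to 0.224 for differently numbered ones. These values cannot exclude a pairing by replicate number. As a block, the number left Cd38 at -1.67 with an adjusted p of 0.0619 and changed no other call among the 6 genes; the ratio gave 1.19 (exact sign-flip p = 0.25, the smallest possible). Depth limits Nos2 most, with 3 to 15 reads per Senp8+/- library.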

Other observations

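The other 4 markers had their own nearest genes by the same measure, looked for after the values were seen and given as a description over 6 libraries. Saa3 was most like C1qc (r = 0.995) and C1qa (r = 0.991), which encode chains of the complement component C1q and are macrophage markers. C1qa stood at 9880, 8733 and 4423 normalised counts in wild-type and 3119, 3146 and 4698 in Senp8+/- replicates 1, 2 and 3, beside 10118, 10481 and 4069 and 3114, 3161 and 4633 for Saa3. In both genes Senp8+/- replicate 3 lay above wild-type replicate 3. Neither C1qa, C1qc nor Saa3 was called in the authors' deposited table. Retnla was most like Clec12a, an inhibitory C-type lectin receptor (r = 0.993), and Pilra, a paired immunoglobulin-like inhibitory receptor (r = 0.992). Cd38 was most like the interferon-inducible Gbp3 (r = 0.996). Fpr2 was most like Lsp1 (r = 0.998) and Hcar2 (r = 0.997), a receptor for hydroxybutyrate, which stood at 340, 323 and 234 in wild type and at 103, 98.6 and 102 in Senp8+/-.

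1 gene of the alternative-activation list lay in the other direction. Il10, an anti-inflammatory cytokine, stood at 2.22 ± 1.02 in wild type and 9.62 ± 4.67 in Senp8+/- and was not called in the authors' deposited table (adjusted p = 0.390).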
